A study of Mus musculus with 6 samples.

Results

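The genes described here encode 10 RNA-binding proteins that are grouped as shared by neurons and pancreatic endocrine cells. Most of them are known as regulators of neuronal-type alternative splicing. The genes are Srrm3, Srrm4, Elavl2, Elavl3, Elavl4, Rbfox1, Rbfox2, Nova1, Nova2 and Celf4. They were taken by name from a table of read counts for 53670 genes, and all 10 were found. The counts come from RNA sequencing of isolated pancreatic islets, small organs of endocrine cells within the pancreas, of mice at 6 weeks of age. The 3 wild-type (WT) libraries were labelled Paupar +/+ and the 3 knockout (KO) libraries Paupar -/-, where Paupar is a long noncoding RNA gene beside Pax6. Islets were freed by collagenase and total RNA was sequenced, so each library is a mixture of all islet cells. The sources used here do not state strain, sex, the design of the Paupar allele or how many animals made up a library. The comparison asks whether the level of these regulators differs when Paupar is missing.

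SRRM3 and SRRM4 promote the inclusion of microexons, very short exons that neurons and endocrine cells splice into proteins of secretion and cell signalling. ELAVL proteins bind U-rich RNA in introns and 3′ untranslated regions, RBFOX proteins bind the sequence UGCAUG beside exons, NOVA proteins bind clusters of short motifs with CA at their core, and CELF proteins bind GU-rich RNA. In the pancreas these regulators have been studied mainly in beta cells, where they shape the splicing, stability or translation of transcripts for insulin production, secretion and survival. Read counts per gene measure how much of a regulator's transcript is present and not which exons are used.

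The libraries held between 25733194 and 27285009 gene counts. Paupar had 177, 252 and 111 counts in the WT libraries, given here and below in the order of replicates 1 to 3, against 4, 0 and 4 in the KO libraries, where a count of 0 allows up to 3 counts. Levels are given below as CPM, the count relative to the library's size, which was scaled by TMM, a normalisation that takes most genes to be unchanged. The 16 endocrine markers (among them Ins1, Ins2, Gcg and Sst) took 27.6 to 30.7% of counts in WT and 32.39 to 33.01% in KO. Xist, which silences an X chromosome, was counted 1120 and 862 times in KO replicates 2 and 3 and between 0 and 6 in the other 4 libraries, while Y-linked Ddx3y had 2 and 0 counts in KO replicates 2 and 3 and between 1316 and 1830 elsewhere. KO replicate 1 is therefore like the WT libraries in these sex-linked genes, and the plot of fold changes below gives each regulator for that library alone. KO replicates 2 and 3 differ from every WT library in these genes as well as in genotype. In them the 2 cannot be told apart, and the part of sex was not tested. The labels do not say that replicates were separate animals, so p-values reflect variation among these libraries only, part of which may be technical.

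Per exonic length, Celf4, Rbfox2 and Elavl4 were the most abundant of the 10 in WT islets and Elavl3 and Rbfox1 the least. The measure is RPKM, CPM divided by the exonic length in kilobases, with SD over 3 libraries. Celf4 stood at 9.31 ± 0.889 RPKM in WT, Rbfox2 at 7.70 ± 0.132 and Elavl4 at 6.13 ± 0.165, and the ranges of these 3 did not overlap. Srrm4 (2.19 ± 0.685 RPKM), Nova1 (1.75 ± 0.0532 RPKM) and Srrm3 (1.59 ± 0.183 RPKM) followed, each overlapping its neighbour in this order. Nova2 (1.04 ± 0.177 RPKM) and Elavl2 (0.509 ± 0.171 RPKM) were lower without overlap. Elavl3 (0.215 ± 0.0979 RPKM) and Rbfox1 (0.135 ± 0.0418 RPKM) overlapped each other. The KO libraries gave the same order but for Elavl4 and Rbfox2, whose ranges overlapped there, and for Rbfox1 and Elavl3, whose ranges also overlapped. Over all 6 libraries Celf4 lay above 69.3% of the tested genes with a known exonic length and Rbfox1 above 1.45%.

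**Figure D1:**
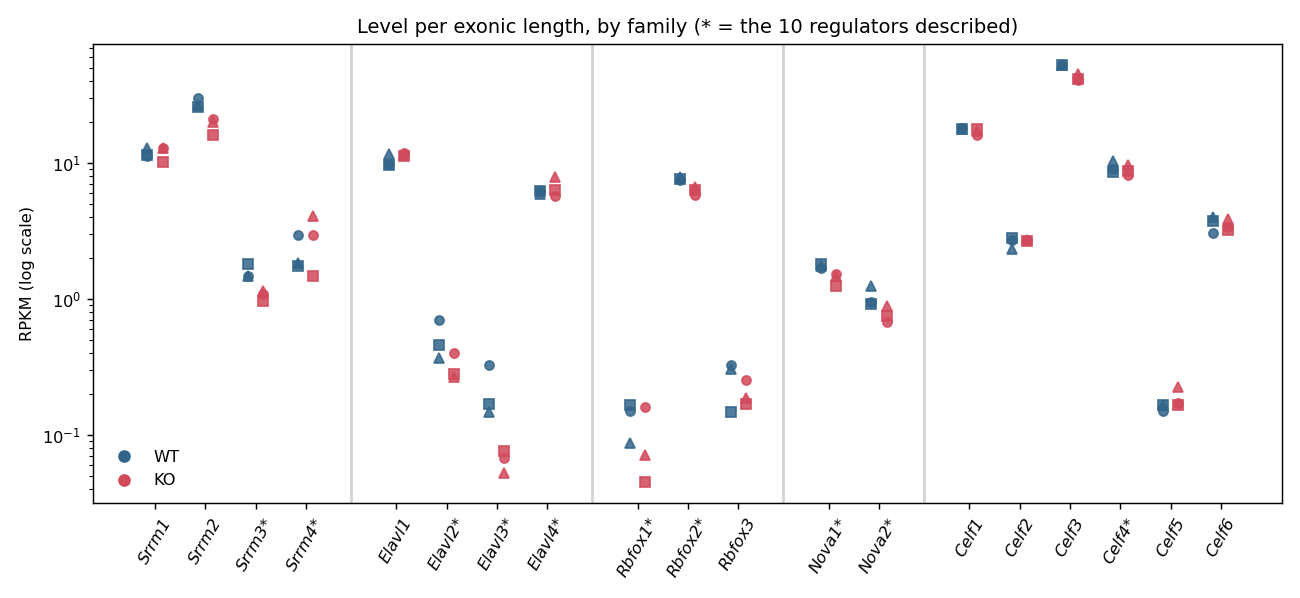
Level per exonic length (RPKM, log axis) of each family's genes in the 3 WT (blue) and 3 KO (red) libraries, with circles, squares and triangles for replicates 1 to 3 and an asterisk on the 10 regulators. Celf3 is the highest of all genes plotted, and Elavl3 and Rbfox1 are the lowest of the 10.

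Between the genotypes, 5 of the 10 regulators (Srrm3, Elavl3, Rbfox2, Nova1 and Nova2) had all 3 KO libraries below all 3 WT libraries, and none had all 3 above. Elavl2, Rbfox1, Celf4, Elavl4 and Srrm4 overlapped between the groups. None of the 10 passed the test over all genes: edgeR's quasi-likelihood test with Benjamini-Hochberg adjustment called 0 lower and 0 higher at an adjusted p below 0.05. That call was made for 0.17% of 15915 tested genes in the lower direction and for 0.0% in the higher one. At an unadjusted p below 0.05, 5 of the 10 were lower, against 9.38% of all tested genes, and 0 were higher, against 6.99%. Groups that did not overlap, with KO lower, were seen in 12.1% of all tested genes. DESeq2, run as an alternative, called 2 of the 10 lower, Srrm3 and Rbfox2, and 0 higher, where it called 4.1% lower and 1.96% higher of the 10659 genes for which it gave an adjusted p. DESeq2 gave none for Elavl2, Elavl3 and Rbfox1. limma-voom called 0 of the 10 and 0 of all tested genes.

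The median log2 fold change (KO over WT) of the 10 was -0.36, beside 0.00 for all tested genes. Elavl3 and Rbfox1 passed the filter on low counts only through the WT libraries, with 1 of 3 KO libraries each above it, so their inclusion leans toward lower values in KO. The median of the other 8 was -0.29. Elavl3 is also among the regulators without overlap and among those lower at an unadjusted p below 0.05, so both counts hold this lean. Rbfox1 is in neither count. These shares and medians describe the members and are not tests of the list. In bulk RNA, fewer cells that express a gene and less RNA per cell cannot be told apart.

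**Figure D2:**
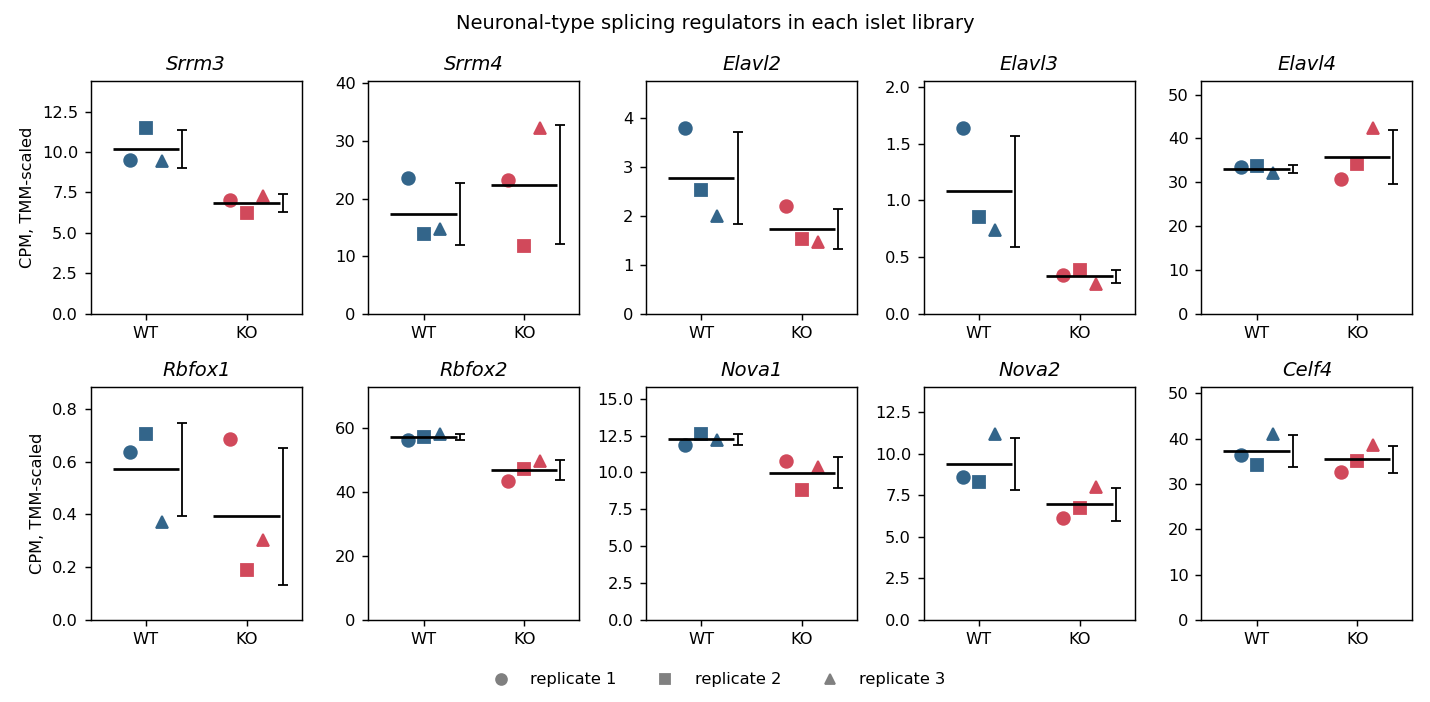
CPM of each regulator in each library, scaled by TMM factors, on linear axes from 0, with replicate shown by symbol, the group mean as a line and the SD as a bar beside it. KO points lie below all WT points for Srrm3, Elavl3, Rbfox2, Nova1 and Nova2, and Srrm4 varies most within the groups among the abundant genes.

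Srrm3 (chromosome 5, 136282760 to 136350642 on mm9) was at 9.53, 11.5 and 9.44 CPM in the WT libraries and at 7.04, 6.22 and 7.31 CPM in the KO libraries. The groups did not overlap, and the lowest library was KO replicate 2. KO over WT this is a log2 fold change of -0.57 (SE 0.13), a 0.675-fold level in KO, with an adjusted p of 0.154 in edgeR and 0.0339 in DESeq2. Leaving out 1 library at a time moved it between -0.62 and -0.47, and with offsets for exonic length and GC content it was -0.35.

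Srrm4 (chromosome 5, 116889281 to 117041826) behaved otherwise among libraries. It was at 23.5, 13.8 and 14.6 CPM in WT and at 23.2, 11.7 and 32.3 CPM in KO. Replicate 1 of each genotype lay near the same level, and KO replicates 2 and 3 were the lowest and the highest of the 6. The fitted difference was 0.37 on the log2 scale (SE 0.38, adjusted p = 0.665 in edgeR), and it was 0.01 without KO replicate 3 and 0.68 without KO replicate 2. The exons of Srrm4 overlap a gene on the opposite strand by at most 68 bases in the annotation, and the sources used here do not state whether counting used strand. The coding sequences of Srrm3 and Srrm4 share no identical run longer than 17 bases.

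Both proteins act on microexons, and annotated exons of at most 27 bases are shown for 6 of 18 genes reported to hold microexons. The 6 were chosen after their values were seen, among genes whose groups did not overlap. Cask and Zfyve27 also had no overlap and hold such exons, which are not shown. The annotation does not say which exons depend on either protein. Capitals mark the exon and lower case the 30 intron bases before it, 5′ to 3′ on the gene's strand, on mm9.
Eif4g1, chr16:20674859-20674879 (+): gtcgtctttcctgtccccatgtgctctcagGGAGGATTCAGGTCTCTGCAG
Eif4g3, chr4:137651824-137651844 (+): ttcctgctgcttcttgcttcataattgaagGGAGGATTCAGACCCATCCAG
Src, chr2:157284579-157284596 (+): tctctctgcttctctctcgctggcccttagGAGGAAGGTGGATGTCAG
Unc13b, chr4:43246776-43246781 (+): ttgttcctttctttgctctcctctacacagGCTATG
Abi1, chr2:22818734-22818748 (-): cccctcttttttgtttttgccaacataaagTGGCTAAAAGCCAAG
Ap1s2, chrX:160369295-160369303 (+): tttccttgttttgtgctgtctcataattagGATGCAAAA
The annotation holds a coding internal exon of at most 27 bases in 16 of the 18 genes. The lengths of the 6 shown are 21, 21, 18, 6, 15 and 9 bases, each a multiple of 3, so that the reading frame is kept with or without the exon. Among exons of the 18 genes that are not shown, those of 13 bases in Cask and of 8 and 22 bases in Itsn1 are not multiples of 3.

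The 18 genes reported to hold microexons had counts in every library, and edgeR called 0 of them lower and 0 higher. Unadjusted p was below 0.05 for 5 that were lower and 1 that was higher, beside 9.38% and 6.99% of all tested genes. The median log2 fold change of the 18 was -0.11. No overlap of the groups was seen for 7 genes with KO lower and for 2 with KO higher, beside 12.1% and 11.3% of all tested genes. The translation initiation scaffold gene Eif4g1 averaged 353.4 ± 17.99 CPM over WT and 274.4 ± 9.96 over KO libraries (-0.36 on the log2 scale, SE 0.07, adjusted p = 0.121 in edgeR). Its relative Eif4g3 was at 136.2 ± 10.04 and 105.1 ± 11.2 CPM (-0.37, SE 0.10). The priming factor gene Unc13b of secretory vesicles was at 44.3 ± 3.26 and 34.8 ± 1.67 CPM (-0.35, SE 0.08). In the other direction, the adaptor subunit gene Ap1s2, on the X chromosome, was at 264.0 ± 31.8 and 353.6 ± 24.7 CPM (0.42, SE 0.11). Of the first 4 genes listed, the adaptor gene Apbb1 was at -0.06 (SE 0.07), the transcription factor genes Mef2c and Mef2d at 0.01 (SE 0.23) and -0.13 (SE 0.08), and the scaffold gene Cask at -0.12 (SE 0.06).

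Among the neuronal ELAVL genes, Elavl4 was abundant and overlapped between genotypes, while Elavl2 and Elavl3 were scarce and had their lowest values among KO libraries. Elavl4 (chromosome 4, 109876327 to 110024514), also called HuD and known to bind insulin mRNA, was at 33.4, 33.7 and 32.0 CPM in WT and at 30.7, 34.1 and 42.5 CPM in KO. KO replicate 3 was the highest library and KO replicate 1 the lowest. Its log2 fold change was 0.12 (SE 0.12, adjusted p = 0.684 in edgeR), and it was -0.03 without KO replicate 3 and -0.10 in KO replicate 1 alone against WT.

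Elavl3 (chromosome 9, 21819449 to 21856467) was counted 44, 23 and 20 times among WT libraries and 9, 10 and 7 times among KO libraries. That is 1.64, 0.854 and 0.741 CPM in WT and 0.342, 0.382 and 0.264 CPM in KO. The groups did not overlap, and WT replicate 1 was the highest library. Its log2 fold change of -1.70 (SE 0.41) was the largest of the 10, with an adjusted p of 0.159 in edgeR. Without WT replicate 1 it was -1.26, and DESeq2 gave no adjusted p.

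Elavl2 (chromosome 4, 90917454 to 91066675) was at 3.81, 2.53 and 1.9996 CPM in WT and at 2.21, 1.53 and 1.47 CPM in KO. WT replicate 1 was again the highest library, and KO replicate 1 lay within the WT range. edgeR gave -0.68 on the log2 scale (SE 0.31, adjusted p = 0.343). Without WT replicate 1 it was -0.38, and KO replicate 1 alone gave -0.33.

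The ELAVL genes are related in sequence, which bears on whether reads could be shared between them. The longest run of identical coding bases between any pair of Elavl1 to Elavl4 was 29 bases, in Elavl3 and Elavl4, and it is shown because a read within it would match both genes.
Elavl3 and Elavl4: ttcggcttcgtcaccatgaccaactacga
The sources used here do not state the read length.

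In the RBFOX family, of which Rbfox2 is the most widely expressed across tissues, the islet libraries held mostly Rbfox2. Rbfox2 (chromosome 15, 76909420 to 77137483) was at 56.1, 57.1 and 58.1 CPM in WT and at 43.4, 47.0 and 49.6 CPM in KO. The WT libraries lay close together, and each KO library was below them. On the log2 scale the difference was -0.29 (SE 0.07), a 0.818-fold level, with an adjusted p of 0.1601 in edgeR and 0.0408 in DESeq2. Leaving out 1 library kept it between -0.34 and -0.24, and with the length and GC offsets it was -0.15.

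Rbfox1 (chromosome 16, 6809315 to 7412572) was counted 17, 19 and 10 times among WT libraries and 18, 5 and 8 times among KO libraries. The groups overlapped, with KO replicate 1 among the higher libraries. The log2 fold change of -0.53 (SE 0.53, adjusted p = 0.657 in edgeR) was 0.26 in KO replicate 1 alone against WT and -1.20 without that library. The longest identical run between the coding sequences of Rbfox1 and Rbfox2 is also 29 bases.
Rbfox1 and Rbfox2: accgtggtagagggccgtaaaatcgaggt
Per exonic length Rbfox2 stood at 7.70 ± 0.132 RPKM in WT, against 0.135 ± 0.0418 for Rbfox1 and 0.260 ± 0.0986 for Rbfox3, the gene of the neuronal nuclear antigen NeuN.

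Both NOVA genes, whose products were first known as antigens of a paraneoplastic neurological disorder, had all KO libraries below all WT libraries. Nova1 (chromosome 12, 47795504 to 47919762) was at 11.9, 12.6 and 12.2 CPM in WT and at 10.8, 8.78 and 10.4 CPM in KO. KO replicate 2 was the lowest library. edgeR gave -0.30 on the log2 scale (SE 0.11, adjusted p = 0.271), and KO replicate 1 alone gave -0.19.

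Nova2 (chromosome 7, 19510698 to 19551031) was at 8.63, 8.32 and 11.2 CPM in WT and at 6.12, 6.72 and 8.03 CPM in KO. The gap between the groups was narrow, since KO replicate 3 lay just under WT replicate 2. In edgeR its log2 fold change came to -0.43 (SE 0.17, adjusted p = 0.283). With the length and GC offsets it was -0.19, and without WT replicate 3, the highest library, -0.28. The exons of Nova2 overlap a gene on the opposite strand by up to 2046 bases, whose reads cannot be told apart if strand was not used. The coding sequences of Nova1 and Nova2 share no identical run above 15 bases.

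Celf4, whose product binds mRNAs of synaptic proteins in neurons, did not differ beyond the spread. It was at 36.4, 34.1 and 41.1 CPM in WT and at 32.6, 35.1 and 38.6 CPM in KO, and replicate 3 was the highest in each genotype. Its fitted log2 difference was -0.07 (SE 0.10, adjusted p = 0.767 in edgeR), and it was 0.02 without WT replicate 3.

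**Figure D3:**
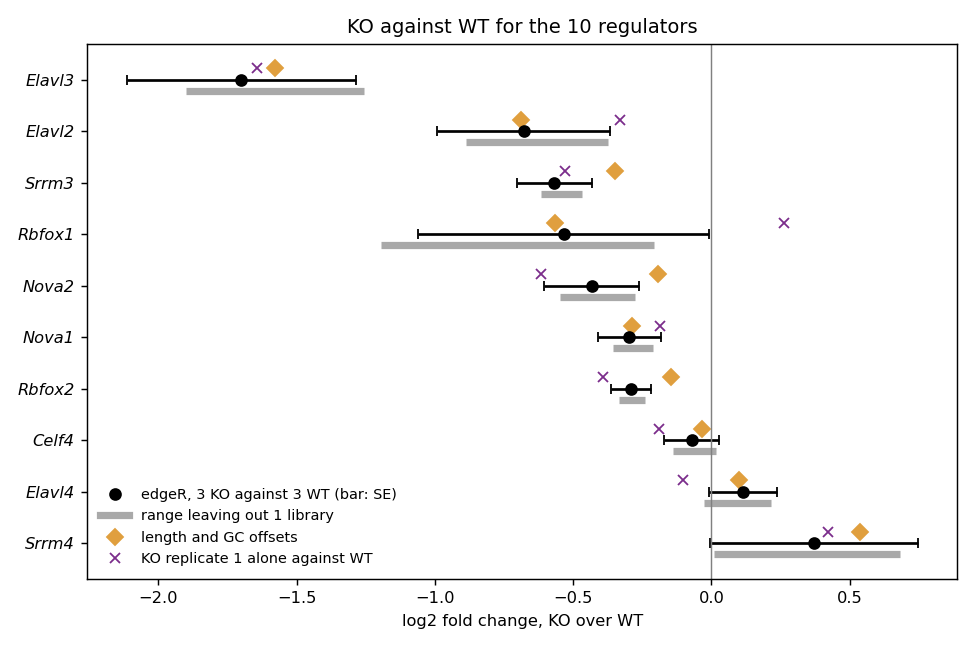
log2 fold change (KO over WT) of each regulator in edgeR with its SE (black), the range when 1 library is left out (grey), with length and GC offsets (orange) and in KO replicate 1 alone against WT (purple). Elavl3 lies farthest from 0 under each of these, and values of Elavl4, Celf4 and Rbfox1 lie on both sides of 0, while the SE bars of Srrm4, Elavl4 and Celf4 include 0.

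The 9 relatives of these families, which are not counted among the 10, include the most abundant genes of each family but RBFOX and NOVA. Celf3 stood at 52.7 ± 0.213 RPKM in WT and 42.5 ± 2.36 in KO, above Celf4 in every library. The widely expressed Elavl1 (HuR) stood at 10.4 ± 1.12 and 11.5 ± 0.277 RPKM, above Elavl4, and the nuclear speckle protein gene Srrm2 at 27.5 ± 2.105 and 19.1 ± 2.70 RPKM. Of the 9 relatives edgeR called 0 lower and 0 higher, and their median on the log2 scale was -0.04. Where p was taken unadjusted below 0.05, 2 were lower and none higher, beside 9.38% and 6.99% of all tested genes. These 2 were Srrm2 (-0.53, SE 0.12, adjusted p = 0.141 in edgeR) and Celf3 (-0.31, SE 0.06, adjusted p = 0.133 in edgeR), and their groups did not overlap. The others were Srrm1 at 0.01 (SE 0.11), Elavl1 at 0.15 (SE 0.09), Rbfox3 at -0.35 (SE 0.36), Celf1 at -0.07 (SE 0.06), Celf2 at 0.05 (SE 0.09), Celf5 at 0.21 (SE 0.25) and Celf6 at -0.04 (SE 0.14).

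Expression of several such genes is known to be held down by REST, the repressor that keeps neuronal genes silent outside neurons and that is low in endocrine cells. Rest itself averaged 4.55 ± 1.86 CPM over WT and 3.50 ± 0.941 over KO libraries, a log2 difference of -0.38 (SE 0.37, adjusted p = 0.654 in edgeR). Per length Rest stood at 0.628 ± 0.256 RPKM in WT, under Srrm3, Srrm4, both NOVA genes, Rbfox2, Elavl4 and Celf4. Its mean lay above those of Elavl2, Elavl3 and Rbfox1, and its range overlapped that of Elavl2. Of the 8 genes for REST and its corepressors, edgeR called 0 lower and 0 higher, with a median log2 fold change of -0.15. Unadjusted p was below 0.05 for 2 that were lower and 1 that was higher, beside 9.38% and 6.99% of all tested genes. The corepressor genes Rcor1, Rcor2 and Sin3a were at -0.17 (SE 0.07), -0.37 (SE 0.24) and -0.05 (SE 0.10).

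The core of the REST element (CAGCACC, any 2 bases, then GGACAG) was searched exactly on both strands of mm9, from 2 kb before to 2 kb after each gene. It was found in 4 of the 10 regulators (Srrm4, Rbfox1, Nova2 and Celf4) and in 4 of the 9 relatives (Rbfox3, Celf3, Celf5 and Celf6), beside 1.56% of 21432 protein-coding genes. The regulators span more sequence than most genes (median 148.7 kb against 15.9 kb), and per Mb searched they held 3.21 matches against 0.352 for all protein-coding genes. Matches in 5 genes are shown, with the fixed letters of the core in capitals and 10 bases on either side.
Srrm4, chr5:116968264-116968278 (-): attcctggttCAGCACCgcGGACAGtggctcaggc
Rbfox1, chr16:7202095-7202109 (-): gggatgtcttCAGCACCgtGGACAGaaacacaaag
Nova2, chr7:19536948-19536962 (-): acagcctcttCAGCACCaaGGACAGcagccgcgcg
Celf3, chr3:94281936-94281950 (+): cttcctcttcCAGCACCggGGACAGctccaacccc
Celf6, chr9:59426244-59426258 (+): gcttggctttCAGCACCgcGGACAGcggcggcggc
A match says that these letters are present and does not show that REST binds there in islets.

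Listed markers of neurons, which reach islets as nerve fibres and ganglia, were also lower in KO on median. Bulk RNA does not show which cells these transcripts came from. The 19 neuron markers summed to 178.1 to 232.1 CPM in WT and 133.2 to 199.3 CPM in KO. Of the 14 tested, 13 had a negative log2 fold change, edgeR called 0 lower and 0 higher, and the median was -0.61. With p taken unadjusted below 0.05, 3 were lower and 0 higher, beside 9.38% and 6.99% of all tested genes. Of these 14, 3 passed the low-count filter only through WT, and the median of the other 11 was -0.37. Leaving out 1 library at a time, the median over the tested markers ran from -0.84 without KO replicate 1 to -0.33 without KO replicate 3. It was -0.77 in limma-voom, -0.17 in KO replicate 1 alone against WT and -0.38 with the acinar marker level as a covariate. The GABA transporter gene Slc32a1 had 0 counts in all 6 libraries, and the glutamate transporter genes Slc17a6 and Slc17a7 had at most 3. The neuronal nitric oxide synthase gene Nos1 was counted 265, 227 and 142 times among WT libraries and 136, 90 and 75 times among KO libraries (-1.04 on the log2 scale, SE 0.31, adjusted p = 0.200 in edgeR). The intermediate filament gene Nefm averaged 17.7 ± 2.54 CPM over WT and 10.4 ± 1.46 over KO libraries (-0.77, SE 0.15), and Rbfox3, Nefl and Nefh, the first others listed, were at -0.35 (SE 0.36), -1.20 (SE 0.55) and -0.28 (SE 0.16).

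Across the 6 libraries, log2 levels had a Pearson r with Nos1 of 0.95 for Elavl2, 0.90 for Elavl3 and 0.80 for Rbfox1. It was 0.79 for Srrm3, 0.75 for Nova1, 0.58 for Rbfox2 and 0.28 for Nova2. For Srrm4, Celf4 and Elavl4 r was -0.15, -0.23 and -0.56. These points share the libraries and the split by genotype, and Nos1 was chosen after its values were seen. Nos1 was itself lower in KO, so r with it tends to be positive for any gene lower in KO. Elavl3 and Rbfox1 also passed the low-count filter only through WT. The part of neurons in the lower levels was not tested. With the acinar marker level as a covariate, Elavl2 went from -0.68 to -0.42, Elavl3 from -1.70 to -1.37 and Rbfox1 from -0.53 to -0.29. Srrm3 was then at -0.58, Rbfox2 at -0.33, Nova1 at -0.30, Nova2 at -0.55, Celf4 at -0.14, Elavl4 at 0.05 and Srrm4 at 0.39. The part of acinar cells was not tested beyond these values. Schwann cell markers summed to 86.2 to 109.0 CPM in WT and 77.0 to 95.3 CPM in KO. Of their 8 tested genes 3, Sox10 among them, passed the low-count filter only through WT. The median log2 fold change was -0.61 over the 8 and -0.29 over the other 5. Leaving out 1 library at a time, the median over the tested genes ran from -0.92 without WT replicate 1 (9 genes) to -0.45 without WT replicate 2 (8 genes).

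**Figure D4:**
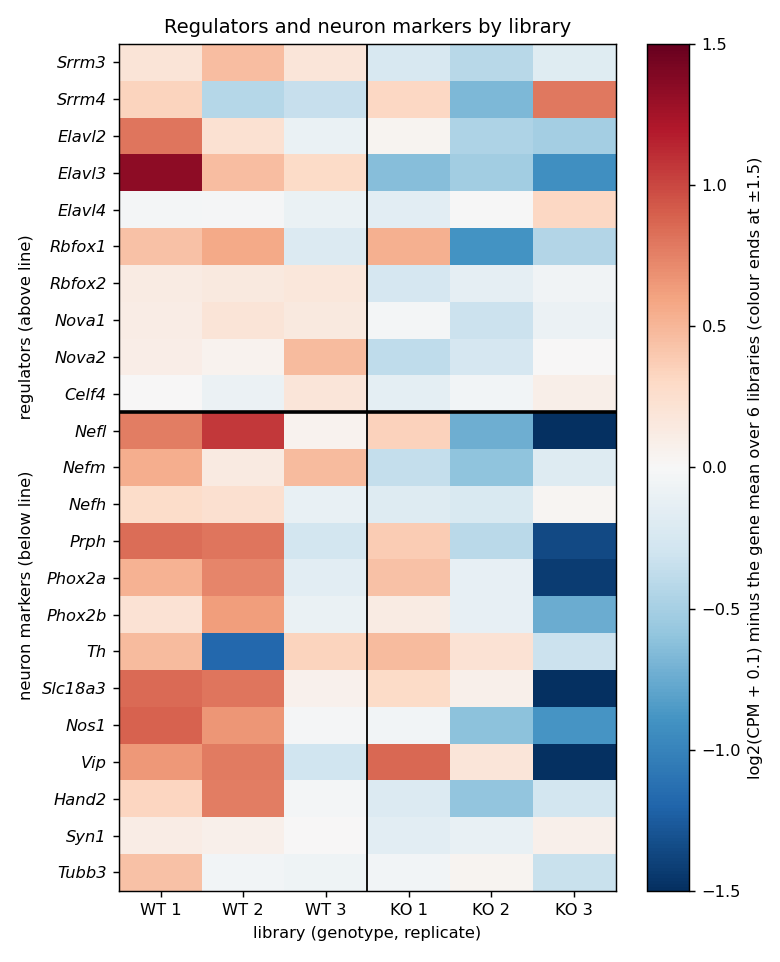
Each gene's log2(CPM + 0.1) minus its mean over the 6 libraries, for the 10 regulators (above the line) and the tested neuron markers other than Rbfox3 (below it), with red above and blue below the mean. Elavl2, Elavl3 and Nos1 are highest in WT replicate 1 and lowest in KO replicate 3.

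Fold changes over all genes also varied with transcript length, and the regulators are long. Their median exonic length was 5932 bp, against 3522 bp for the tested genes. When genes were split into 5 groups of like size by length, the longest, with Srrm3, Srrm4, Rbfox2, Nova1 and Nova2, had a median fold change of -0.10 on the log2 scale, and the shortest had 0.09. The part of length in the lower levels was not tested beyond the offsets given next. With smooth offsets for exonic length and GC content in each library, Srrm3 went from -0.57 to -0.35, Rbfox2 from -0.29 to -0.15 and Nova2 from -0.43 to -0.19. Elavl2 (-0.69), Elavl3 (-1.58) and Nova1 (-0.29) stayed near their values without offsets, and Srrm4 was at 0.54. With these offsets the median of the 10 regulators was -0.24 and that of the 9 relatives 0.09. It was -0.04 for the REST list and 0.03 for the 18 genes reported to hold microexons. The lowest adjusted p of the 10 with the offsets was 0.305 in edgeR, for Elavl3.

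**Figure D5:**
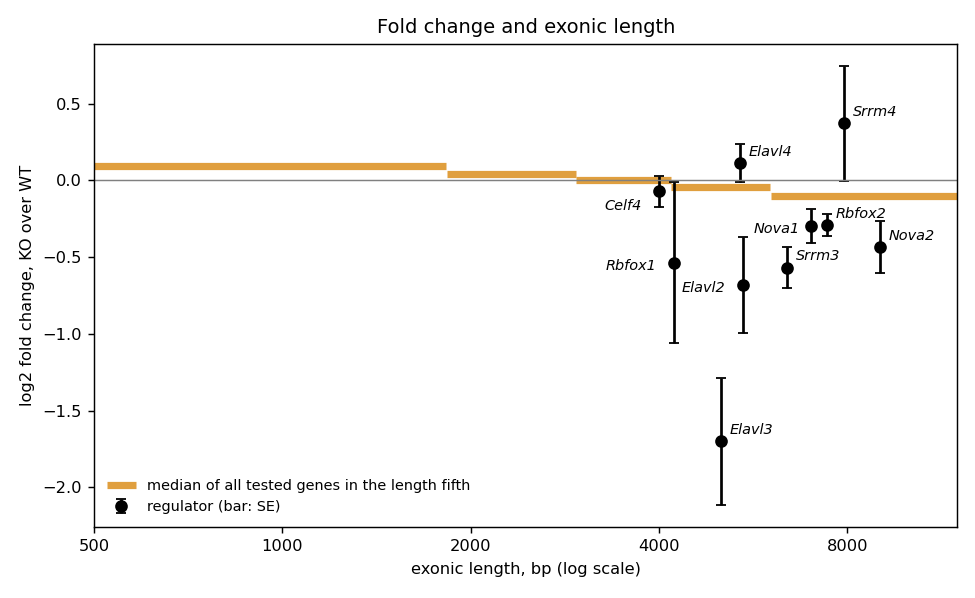
log2 fold change (KO over WT, bar: SE) of each regulator against its exonic length (log axis), with the median of all tested genes in each of 5 length groups in orange. The medians run from 0.09 to -0.10 as length increases, and Elavl3, Elavl2, Srrm3, Rbfox1 and Nova2 lie farthest below them.

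The 10 regulators did not share a single pattern across the libraries. Of their 45 pairs 32 had a positive Pearson r of log2 CPM over the 6 libraries, and r ran from -0.48 (Elavl2 and Elavl4) to 0.93 (Srrm3 and Nova1). Elavl2 and Elavl3 were most like each other (0.89), as were Srrm3 and Nova1 (0.93) and Rbfox2 and Nova2 (0.89). Celf4 was most like Nova2 (0.84), Rbfox1 most like Elavl2 (0.79), and Srrm4 and Elavl4 most like each other (0.50). Among 14039 other tested genes with a mean of at least 1 CPM, those closest to the mean pattern of the 10 were Fam161b, Fbxo46, Ccar2, Arhgef11 and Sox13, each with r of at least 0.99. The groups of each of these 5 did not overlap, and their log2 fold changes ran from -0.41 for Sox13 to -0.14 for Fbxo46. Both traits follow from picking genes for their likeness to this pattern and are not a separate result.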

How the data were processed

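The deposited table holds raw read counts per gene that the authors had not normalized, for 6 libraries, and 0 columns were left over. The build mm9 and the tools HTSeq, HISAT2 2.1.0, DESeq2 and CASAVA 1.8.2 are named in the submitters' processing notes. For annotation, counting options, strand use and read length, the entry is: not given in the sources used here. Of the gene names, 24 had been turned into dates. None of them is named here, but their rows were kept in the counts that were filtered, scaled and tested.

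Genes were kept by filterByExpr of edgeR 4.0.16 (R 4.3.3), scaled by TMM and tested with the quasi-likelihood F-test, with Benjamini-Hochberg adjustment over 15915 genes and a threshold of 0.05. Replicates varied beyond counting noise. Fold changes are KO over WT on the log2 scale with SE, and levels are mean ± SD of TMM-scaled CPM over 3 libraries. RPKM uses exonic lengths of GENCODE vM1 on mm9, matched for 93.0% of tested genes. The limit given for a count of 0 covers counting error only. The test was also run on simulated counts with planted changes. That outcome is not given here, nor is the power to call changes of the size seen for the regulators. Alternatives included DESeq2 1.42.0, limma-voom (limma 3.58.1), other scalings and filters, a replicate block, an acinar covariate, length and GC offsets, and leaving out libraries.

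The regulators, the gene lists and the alternatives were chosen with earlier results of these data known. The text names the 10 regulators, their relatives, Paupar and Rest, and in other lists called genes or the first members listed. Others, such as Eif4g1, Eif4g3, Unc13b, Ap1s2, Nos1 and Sox10, were named after their values were seen. Likeness used Pearson's r of log2(CPM + 0.1). Coding sequences and microexons came from GENCODE vM1 and the mm9 genome. Listed markers of acinar, endothelial, fibroblast and macrophage cells were measured as other cells that islet preparations hold. Figures were drawn with matplotlib 3.10.9.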

Additional observations from a re-analysis of the deposited data

How the results depend on the processing

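The count of called regulators was 0 in each direction in edgeR and under the alternatives run, except that DESeq2 called 2 lower. The count of called genes over all genes, 27 in edgeR, was 646 (437 lower, 209 higher) in DESeq2, 132 at an adjusted p below 0.1, 1 with the length and GC offsets, 1 in KO replicate 1 alone against WT, and 0 in limma-voom or with the acinar covariate. Leaving out 1 library gave 0 to 89: 89 without WT replicate 3, 5 without KO replicate 1, and 0 without any of the other 4. With the replicate block the count was 0. Same-numbered libraries had correlations of their deviations of 0.19, 0.07 and 0.03. WT replicates 1 and 2 each correlated best with the KO library of the same number, and WT replicate 3 with KO replicate 2. The labels do not say that equal numbers pair samples, so the main fit held no block. The block called 0 regulators.

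The direction was the same under each alternative run for Srrm3, Srrm4, Elavl2, Elavl3, Rbfox2, Nova1 and Nova2. It turned for Elavl4 in KO replicate 1 alone (-0.10) and without KO replicate 3, for Celf4 without WT replicate 3, and for Rbfox1 in KO replicate 1 alone (0.26). Leaving out 1 library at a time, Elavl4 ran from -0.026 to 0.21 and Celf4 from -0.14 to 0.016. The cause was not tested. With at least 1 CPM required in 3 libraries, Elavl3 and Rbfox1 were not tested. Both rest on counts of 5 to 44 per library.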

Other observations

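Other splicing regulators that mark tissue types were also measured. Of 20 tested genes of that list, edgeR called 0 lower and 0 higher, and the median log2 fold change was -0.05. Unadjusted p was below 0.05 for 2 that were lower and 2 that were higher, beside 9.38% and 6.99% of all tested genes. Ptbp1, the polypyrimidine tract protein that represses neuronal exons outside neurons, stood at 29.4 ± 0.467 RPKM over WT and 28.8 ± 0.584 over KO libraries (-0.03 on the log2 scale, SE 0.06). Its neuronal relative Ptbp2 stood at 4.91 ± 0.551 and 3.83 ± 0.288 RPKM (-0.36, SE 0.12, adjusted p = 0.223 in edgeR), and Ptbp3 at 40.3 ± 7.45 and 51.6 ± 5.66 RPKM (0.36, SE 0.15). Mbnl1, a muscleblind splicing factor gene, was at -0.05 (SE 0.08). Tia1, which encodes a U-rich RNA-binding protein of stress granules, was singled out after its values were seen. It averaged 18.04 ± 2.28 CPM over WT and 11.5 ± 0.530 over KO libraries with no overlap (-0.64, SE 0.12, adjusted p = 0.106 in edgeR).

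Markers of other cells that islet preparations hold, with 0 calls in edgeR for each list, had median log2 fold changes of -0.52 for acinar cells (24 genes), 0.31 for endothelial cells (14 genes), 0.26 for fibroblasts and stellate cells (11 genes) and 0.33 for macrophages (10 genes). Single libraries moved most of these medians. The acinar median was 0.0068 without WT replicate 1 and -0.22 without KO replicate 3, and -0.83 and -0.87 without WT replicate 3 and KO replicate 1. The fibroblast median was -0.02 without KO replicate 1, 0.05 without WT replicate 1, 0.06 without KO replicate 2 and 0.49 without WT replicate 3. The macrophage median was 0.13 without WT replicate 1 and 0.58 without WT replicate 3. The endothelial median ran from 0.26 to 0.43 when 1 library was left out. Acinar markers took 3.09 to 9.28% of counts in WT and 2.17 to 5.57% in KO. Unadjusted p was below 0.05 for 0, 8, 1 and 0 genes of these lists that were higher and for none that was lower. Over all tested genes the shares were 6.99% higher and 9.38% lower.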
